A study of Mus musculus with 12 samples.

Results

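The epidermal growth factor (EGF) receptor system was followed in mouse kidney through 10 genes. They were the receptors Egfr, Erbb2 and Erbb3, the ligands Hbegf, Areg, Ereg, Tgfa and Btc, the sheddase Adam17 and the receptor inhibitor Errfi1. They were taken by name from a table of 55487 genes, and each name matched 1 gene. The names were chosen with earlier results of these data known. The ligand Egf is given beside them, since it is the ligand for which the receptor is named.

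The receptors of this family sit in the cell membrane and signal in pairs. A ligand binds Egfr or Erbb3 from outside, the receptors pair, and their tyrosine kinases start the RAS-ERK, PI3K-AKT and STAT pathways. Erbb2 has no known ligand and is the preferred partner of the others, whereas Erbb3 binds neuregulins and has little kinase activity of its own. The ligands are made as membrane proteins and are cut free by metalloproteases, of which Adam17 releases Hbegf, Areg, Ereg and Tgfa. Errfi1 (Mig6) binds the active kinase and blocks it. In the kidney, Egf is made mainly in the thick ascending limb and the distal convoluted tubule, and receptor signalling in the proximal tubule is known for its part in tubular repair and, when it persists, in fibrosis.

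Libraries of RNA from kidney cortex came from 12 mice, 3 in each of 4 groups. Ctrl mice carried 2 floxed ALR alleles (ALR flox/flox) without Cre and had a sham operation, and Ctrl+I/R mice of the same genotype had 22 min of bilateral renal ischemia and 24 h of reperfusion. PT-KO and PT-KO+I/R mice carried the same floxed alleles with Ggt1-Cre, a transgene that drives recombination in the proximal tubule, and were treated in the same 2 ways. ALR is the protein of the gene Gfer, and the labels call the controls WT and the knockouts ALR knockdown. The mice were of a mixed C57BL/6 background and 6 to 8 weeks old. Cre acts only in part of the cells of the cortex, and the count of the whole gene includes exons outside the deleted stretch.

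Each library held between 12165089 and 23123693 counts. Levels are given as counts per 1000000 counts (CPM) scaled by TMM, a correction for differences in depth and composition between libraries, and as CPM per kb of exon where genes are set against each other. The length is that of all annotated exons of a gene together, and the order of genes depends on it. The deleted gene was not lower in the libraries labelled knockout. Gfer was at 12.7, 11.3 and 14.5 CPM in Ctrl and at 10.01, 17.1 and 15.1 CPM in PT-KO, which overlapped (log2 fold change 0.13, edgeR adjusted p = 0.761). It was at 15.3, 20.0 and 17.7 CPM in Ctrl+I/R and at 21.3, 22.7 and 21.4 CPM in PT-KO+I/R, without overlap and with the libraries labelled knockout on the higher side, against the label (log2 fold change 0.32, edgeR adjusted p = 0.0723). With I/R, Gfer had a log2 fold change of 0.46 in controls (edgeR adjusted p = 0.0637) and rose by 0.64 in knockouts (edgeR adjusted p = 0.00888), and the difference of these responses was 0.19 (edgeR adjusted p = 0.593). Control, knockout, Ctrl and PT-KO therefore stand throughout for libraries labelled so. Transcripts of the X and Y chromosomes put Ctrl libraries 1 and 2 as female and the other 10 libraries as male. Ctrl+I/R library 2 stood apart from the other Ctrl+I/R libraries, with 3065 CPM summed over 7 markers of injured tubule against 1355 and 755 CPM. In whole tissue, fewer cells of a type and less RNA per cell cannot be told apart. The labels do not say more of how the mice of a group relate to each other, and the p-values measure the spread between these 3 libraries.

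In Ctrl kidneys the inhibitor stood far above the receptors it acts on. Errfi1 was at 127 ± 12.9 CPM per kb (SD, n = 3), followed by Erbb3 at 19.5 ± 0.235, Erbb2 at 15.1 ± 1.499 and Egfr at 7.78 ± 1.09 CPM per kb. In CPM, not divided by length, Egfr was at 88.2 ± 12.3 and Erbb2 at 78.7 ± 7.81, which overlapped. Adam17 was at 6.08 ± 0.519 CPM per kb and lay just under Egfr, without overlap between the libraries. The ligand Egf, given beside these genes, stood above all of them, Errfi1 included, at 251 ± 40.6 CPM per kb. The ligands other than Egf came last, with Hbegf at 2.93 ± 1.07, Btc at 2.14 ± 0.257 and Tgfa at 1.03 ± 0.235 CPM per kb. Hbegf and Btc overlapped in this order. Ereg had 1 count in all 3 Ctrl libraries together and Areg had 0.

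In PT-KO+I/R kidneys the order of these levels per kb was another. Errfi1 was at 347 ± 6.91 and Erbb3 at 38.5 ± 5.33 CPM per kb (SD, n = 3), and Egfr, at 15.5 ± 2.39 CPM per kb, stood above Erbb2, at 8.86 ± 0.967 CPM per kb. Hbegf, at 13.0 ± 4.77 CPM per kb, overlapped both Egfr and Erbb2. Adam17 was at 4.33 ± 0.262, Tgfa at 1.76 ± 0.112 and Btc at 0.984 ± 0.104 CPM per kb, while Areg and Ereg, at 0.354 ± 0.0728 and 0.269 ± 0.133 CPM per kb, overlapped each other.

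**Figure D1:**
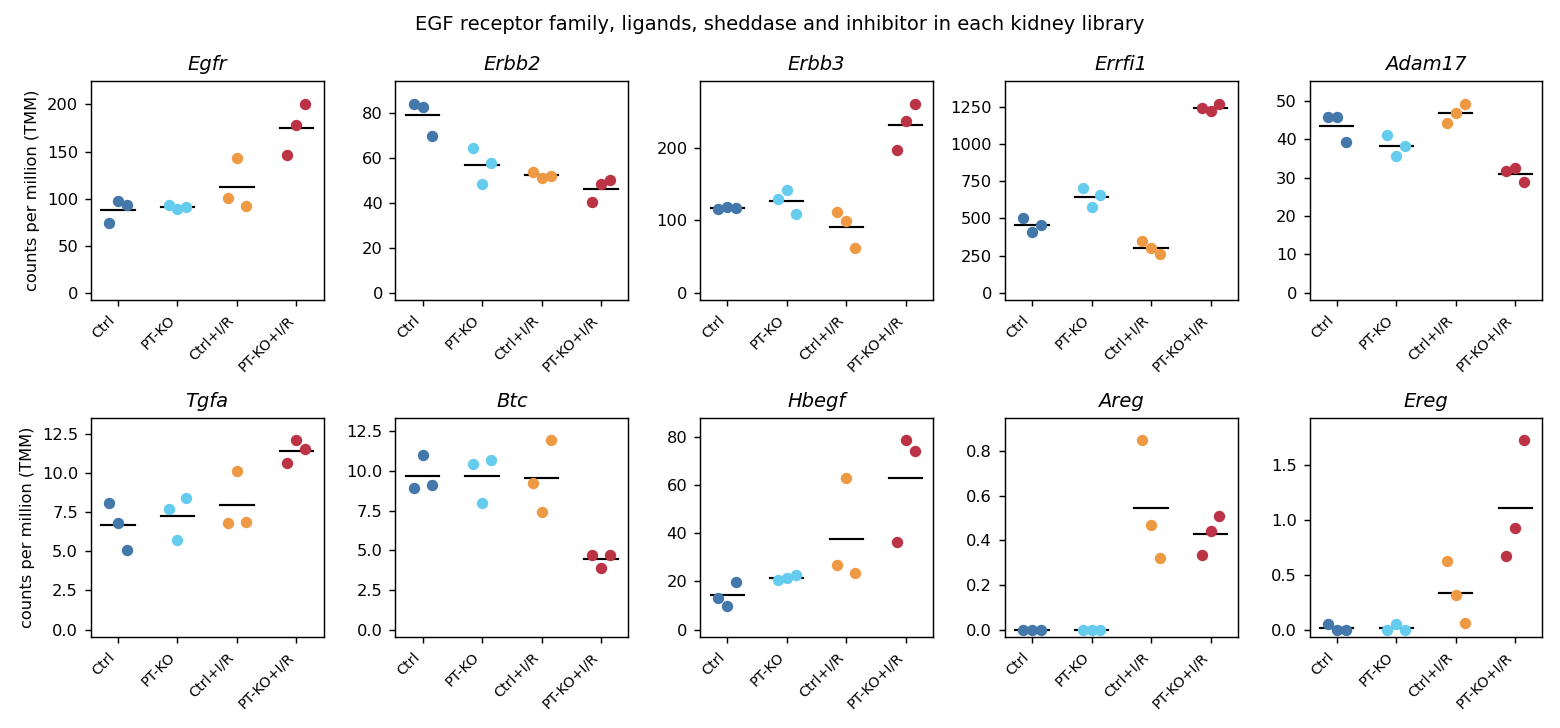
Level of each of the 10 genes in CPM (TMM, linear axis from 0) in the 12 libraries; points are libraries, colours are the 4 groups and black lines are group means. Errfi1, Erbb3 and Egfr were highest in PT-KO+I/R, where Btc and Adam17 were lowest, and Areg was at 0 in the 6 sham libraries.

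The first question was how injury changed the system in control mice, from Ctrl+I/R against Ctrl. In edgeR's quasi-likelihood test, with p-values adjusted by Benjamini-Hochberg over the 15567 genes tested, 8 of the 10 genes could be tested, and 2 of them fell and none rose. Of all genes tested, 7.97% were called lower and 11.4% higher. In 4 of the 8 tested genes the injured and sham libraries stood apart without overlap, against 43.6% of all genes. More genes were called higher than lower under both scalings, by a margin that differed: TMM gave 1778 higher and 1241 lower, and total counts gave 2346 and 766, with the median of all genes at 0.11 on the log2 scale.

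Egfr, the receptor for Egf, was at 74.2, 97.5 and 92.8 CPM in Ctrl and at 100, 143 and 92.4 CPM in Ctrl+I/R. The groups overlapped, with only Ctrl+I/R library 2 well above the rest, giving a log2 fold change of 0.34 (SE 0.186, edgeR adjusted p = 0.216). Erbb2, the shared partner receptor, was at 83.9, 82.5 and 69.7 CPM in Ctrl and at 53.8, 50.8 and 52.0 CPM in Ctrl+I/R. Every injured library lay below every control, and Erbb2 fell by 0.59 on the log2 scale (SE 0.107, edgeR adjusted p = 0.0156). Erbb3, the neuregulin receptor, was at 116, 119 and 117 CPM in Ctrl and at 112, 98.9 and 62.1 CPM in Ctrl+I/R. Its injured libraries were all lower but spread widely, and the log2 fold change of -0.36 (SE 0.207) did not pass, with an edgeR adjusted p of 0.239.

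Errfi1, the kinase inhibitor, was at 501, 408 and 454 CPM in Ctrl and at 348, 299 and 259 CPM in Ctrl+I/R. No library of either group reached the other, and Errfi1 fell by 0.59 on the log2 scale (SE 0.158, edgeR adjusted p = 0.0413). Adam17, the sheddase, was at 45.7, 45.6 and 39.2 CPM in Ctrl and at 44.1, 46.8 and 49.2 CPM in Ctrl+I/R, which overlapped. Its log2 fold change was 0.10, with a 95% interval from -0.14 to 0.34. With total counts in place of TMM, Errfi1 lost its call (-0.47, edgeR adjusted p = 0.0686), while Erbb2 passed. The call of Errfi1 was also lost when any 1 of the 6 libraries was left out, with values from -0.71 to -0.49, and that of Erbb2 without Ctrl library 1 or 2 or Ctrl+I/R library 1, with values from -0.67 to -0.53. With sex as a covariate, which leaves Ctrl library 3 as the lone male control, Erbb2 was at -0.42 (adjusted p = 0.12) and Errfi1 at -0.59 (adjusted p = 0.172), and 0 of the 8 genes and 1 gene of all those tested were called.

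Of the ligands, Hbegf, a heparin-binding ligand of Egfr, was at 13.1, 9.62 and 19.8 CPM in Ctrl and at 26.7, 62.8 and 23.4 CPM in Ctrl+I/R. The injured libraries were all higher, Ctrl+I/R library 2 by far, and the log2 fold change of 1.40 (SE 0.415) just missed the threshold, with an edgeR adjusted p of 0.0523. Hbegf passed without Ctrl+I/R library 4, or with DESeq2, total counts, no filter on low counts or 1 fit to all libraries. It moved to 0.84 (edgeR adjusted p = 0.105) without Ctrl+I/R library 2 and to 0.92 (edgeR adjusted p = 0.349) with sex as a covariate, and leaving out Ctrl library 1 or 2 gave edgeR adjusted p-values of 0.145 and 0.15. Tgfa, a soluble ligand of Egfr, was at 8.11, 6.82 and 5.07 CPM in Ctrl and at 6.79, 10.1 and 6.89 CPM in Ctrl+I/R, and its log2 fold change was 0.25 with a 95% interval from -0.32 to 0.82. Btc, which binds both Egfr and Erbb4, was at 8.91, 11.0 and 9.13 CPM in Ctrl and at 9.24, 7.42 and 11.9 CPM in Ctrl+I/R. Both genes overlapped between the groups, and Btc had a log2 fold change of -0.03 with an interval from -0.50 to 0.45, which turned to 0.08 with total counts.

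Areg and Ereg, ligands that many epithelia make only on stimulation, were close to nothing in kidneys without injury. Areg had 0 counts in each of the 6 sham libraries, where a count of 0 allows up to 3 counts, or 0.15 to 0.19 CPM, and it had 19, 9 and 5 counts in Ctrl+I/R and 4, 10 and 8 counts in PT-KO+I/R. Against the floor of 3 counts per library, Areg was at least 3.28-fold higher with injury in controls and at least 2.4-fold higher with injury in knockouts. It had too few counts for the edgeR test in any comparison, and the injured groups overlapped. Ereg had 1, 0 and 0 counts in Ctrl and 14, 6 and 1 counts in Ctrl+I/R, a ratio of 20.0 with an exact interval from 3.21 to 825 that covers counting error only. In PT-KO it had 0, 1 and 0 counts and in PT-KO+I/R 8, 21 and 27 counts, a ratio of 56.5 with an interval from 9.73 to 2270. The lowest Ctrl+I/R library, with 1 count, lay no higher in count than the highest sham libraries. In the annotation of mm10 (GENCODE M21) Ereg (chr5:91074622-91093646, plus strand) and Areg (chr5:91139599-91148432, plus strand) are neighbours, with 45952 bases and 0 other genes between them.

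The second question was how injury changed the system in the knockout, from PT-KO+I/R against PT-KO. Of the 8 genes with enough counts in sham kidneys for the test, 5 rose, 2 fell and 1 did not pass, in a comparison where 32.9% of all tested genes were called higher and 32.7% lower. The libraries did not overlap in 7 of the 8, against 70.7% of all genes tested. The receptors Egfr and Erbb3, the ligands Hbegf and Tgfa, and the inhibitor Errfi1 rose, while Btc and Adam17 fell.

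Egfr was at 93.5, 88.8 and 90.8 CPM in sham PT-KO and at 147, 178 and 201 CPM in PT-KO+I/R. The lowest injured library was above every sham library, and Egfr rose by 0.96 on the log2 scale (SE 0.113, edgeR adjusted p = 4.4e-05). Erbb3 was at 130, 142 and 109 CPM in sham PT-KO and at 197, 237 and 261 CPM in PT-KO+I/R, a log2 rise of 0.88 (SE 0.127, edgeR adjusted p = 1.7e-04) without overlap. Erbb2 was at 64.1, 48.1 and 57.4 CPM in sham PT-KO and at 40.4, 48.2 and 49.9 CPM in PT-KO+I/R. These overlapped, and its log2 fold change of -0.28 (SE 0.123) had an edgeR adjusted p of 0.0696. Of the fits with a library left out, Erbb2 was called only without PT-KO library 2. Erbb3 stood at 1.65 to 2.55 times the level of Erbb2 per kb in PT-KO and at 4.23 to 4.53 times in PT-KO+I/R, beside 1.2 to 1.45 times in Ctrl and 1.03 to 1.80 times in Ctrl+I/R.

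Errfi1 was at 707, 575 and 654 CPM in sham PT-KO and at 1241, 1220 and 1269 CPM in PT-KO+I/R. All injured libraries were far above all sham libraries, and Errfi1 rose by 0.96 on the log2 scale (SE 0.103, edgeR adjusted p = 2.3e-05). Set against the receptor it inhibits, Errfi1 per Egfr (each per kb) was 16.7 ± 4.18 in Ctrl and 8.82 ± 2.18 in Ctrl+I/R, while it was 22.4 ± 1.75 in PT-KO and 22.8 ± 3.50 in PT-KO+I/R (SD, n = 3). Adam17 was at 41.0, 35.5 and 38.2 CPM in sham PT-KO and at 31.7, 32.4 and 28.8 CPM in PT-KO+I/R. It fell by 0.29 on the log2 scale (SE 0.0982, edgeR adjusted p = 0.0245), a call that was lost without PT-KO library 1 or 4 or PT-KO+I/R library 4, with total counts, or with no filter on low counts.

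Hbegf was at 20.6, 21.4 and 22.7 CPM in sham PT-KO and at 36.5, 78.4 and 73.9 CPM in PT-KO+I/R. The sham libraries were close together and all below the injured ones, of which library 2 was the lowest, and Hbegf rose by 1.56 on the log2 scale (SE 0.236, edgeR adjusted p = 2.4e-04). Tgfa was at 7.73, 5.71 and 8.39 CPM in sham PT-KO and at 10.7, 12.1 and 11.6 CPM in PT-KO+I/R, a log2 rise of 0.67 (SE 0.174, edgeR adjusted p = 0.00658). Btc was at 10.4, 7.98 and 10.7 CPM in sham PT-KO and at 4.71, 3.90 and 4.73 CPM in PT-KO+I/R. With no overlap, Btc fell by 1.118 on the log2 scale (SE 0.189, edgeR adjusted p = 5.0e-04). Ereg entered the edgeR test only through its injured libraries, so its call (adjusted p = 2.7e-04) is not counted above, and its fold is given only as the ratio of counts.

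The third question was how the knockout and control kidneys differed after injury, with Ctrl+I/R as the reference for PT-KO+I/R. These libraries are the injured ones of the comparisons above, so the 3 sets of values are not independent. Of the same 8 genes, 4 were higher, 2 lower and 2 not called, where 22.5% of all tested genes were higher and 24.4% lower, and 7 of the 8 did not overlap against 58.6% of all genes. With total counts in place of TMM, 1978 genes were higher and 5080 lower instead of 3444 and 3725, with the median of all genes at -0.21 on the log2 scale.

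Of the 8 genes, Errfi1 had the largest difference: the PT-KO+I/R libraries, from 1220 to 1269 CPM, were all above the Ctrl+I/R libraries, from 259 to 348 CPM. On the log2 scale this came to 2.05 (SE 0.148, edgeR adjusted p = 1.6e-04), which is a ratio of 4.15. Erbb3, at 197 to 261 CPM against 62.1 to 112 CPM, was higher by 1.36 on the log2 scale (SE 0.219, edgeR adjusted p = 0.00214). Egfr was higher by 0.66 (SE 0.185, edgeR adjusted p = 0.0201), but the lowest PT-KO+I/R library, at 147 CPM, stood just above Ctrl+I/R library 2, at 143 CPM. Erbb2, at a log2 fold change of -0.16 with a 95% interval from -0.41 to 0.08, did not pass, although its libraries did not overlap.

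Among the ligands, Tgfa was higher in injured knockouts by 0.54 on the log2 scale (SE 0.189, edgeR adjusted p = 0.0447) and Btc lower, at -1.09 (SE 0.224, edgeR adjusted p = 0.00579). Every PT-KO+I/R library had less Btc than every Ctrl+I/R library. Adam17, with 28.8 to 32.4 CPM against 44.1 to 49.2 CPM, was lower as well, at -0.58 (SE 0.0975, edgeR adjusted p = 0.00255). Hbegf overlapped between these groups and had a log2 fold change of 0.76 (95% interval from -0.17 to 1.70). Ereg, with 14, 6 and 1 counts in Ctrl+I/R and 8, 21 and 27 counts in PT-KO+I/R, did not pass (edgeR adjusted p = 0.0679) and is left out of these counts, as its low levels entered it in the test only through injured libraries.

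Errfi1, Erbb3, Btc and Adam17 were called whichever of the 6 libraries was left out. Egfr lost its call without Ctrl+I/R library 1 or 4 or PT-KO+I/R library 3 or 4, with values from 0.53 to 0.87, and with total counts, at 0.45 (adjusted p = 0.0896). Tgfa lost its call in 5 of the 6 fits, all but the one without Ctrl+I/R library 2, with values from 0.43 to 0.75, and also with total counts, at 0.33 (adjusted p = 0.214), and with no filter on low counts. Without Ctrl+I/R library 2, Hbegf was called, at 1.33.

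**Figure D2:**
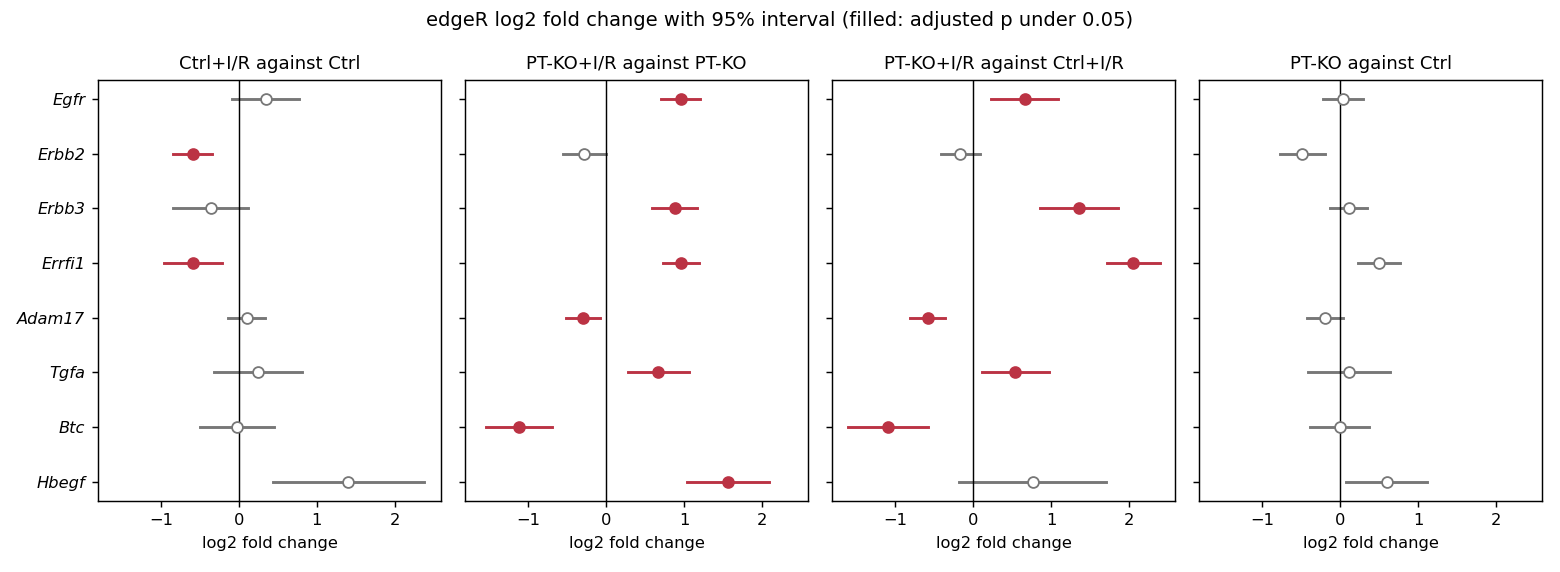
Log2 fold change (edgeR, x axis) of the 8 genes tested in every comparison, with 95% intervals, in the 4 pairwise comparisons; filled points have an adjusted p under 0.05. Errfi1 lies at -0.59 for I/R in controls, at 0.96 for I/R in knockouts and at 2.05 between the injured groups.

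The fourth question was whether the injury response itself differed with genotype, from the knockout by I/R interaction in 1 fit to all 12 libraries. The value is the log2 change with I/R in knockouts minus that in controls. Of the same 8 genes, 2 were positive and 2 negative at the threshold, where 14.3% of all 16168 genes tested were called positive and 16.4% negative. With total counts, the called genes were 1591 and 2997 instead of 2305 and 2648. Errfi1 stood at 1.56 (SE 0.187, edgeR adjusted p = 1.8e-04) and Erbb3 at 1.25 (SE 0.264, edgeR adjusted p = 0.00442). Both genes were lower in every injured control library than in every control and higher in every injured knockout library than in every knockout. Btc stood at -1.08 (SE 0.274, edgeR adjusted p = 0.0120), since it overlapped between Ctrl+I/R and Ctrl and fell in the knockout.

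Adam17 was at -0.38 (SE 0.132, edgeR adjusted p = 0.0471), a call that held in 1 of 12 fits with a library left out. Egfr, at 0.63 (SE 0.237), missed the threshold with an edgeR adjusted p of 0.0629 and passed in DESeq2, with an adjusted p of 0.0375. It also passed in 3 of 12 fits with a library left out, where its values ran from 0.50 to 0.83. The intervals of the other genes of the 8 held 0: Erbb2 ran from -0.04 to 0.69, Tgfa from -0.23 to 1.10 and Hbegf from -1.001 to 1.32. Ereg, with 1 count in each sham group, was not called either. Errfi1, Erbb3 and Btc were called in all 12 fits with a library left out and with sex as a covariate.

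The remaining comparison was of the knockout without injury, PT-KO against Ctrl. None of the 8 genes tested passed, as 0% of all 15291 tested genes were called higher and 0% lower by edgeR, while 2573 had an unadjusted p under 0.05 and DESeq2 called 458. Libraries did not overlap in 3 of the 8 genes, against 21% of all genes. These were Erbb2, with a log2 fold change of -0.49 (edgeR adjusted p = 0.201), Errfi1, at 0.50 (edgeR adjusted p = 0.185), and Hbegf, at 0.60 (edgeR adjusted p = 0.260). DESeq2 called Errfi1 and Erbb2, with adjusted p-values of 0.00471 and 0.0356. Without Ctrl library 3 edgeR called all 3 genes. That fit sets female controls alone against male knockouts, so it cannot tell sex from genotype. Ctrl library 3, the male control, had 69.7 CPM of Erbb2, 19.8 CPM of Hbegf and 454 CPM of Errfi1. The female controls had 83.9 and 82.5 CPM of Erbb2, 13.1 and 9.62 CPM of Hbegf, and 501 and 408 CPM of Errfi1. With 1 male control, sex and genotype cannot be told apart in these levels. For Egfr the log2 fold change was 0.04, with an interval from -0.22 to 0.29, and its sign turned with total counts. In an exact permutation test of any single gene, 3 against 3 libraries cannot give a p under 0.1, which was the value of every gene here whose libraries did not overlap.

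The make-up of the ligands changed with injury. Egf, the ligand made in quantity by the healthy distal nephron, was at 3086, 3114 and 2308 CPM in Ctrl, at 2439, 2332 and 2567 CPM in PT-KO, at 427, 15.0 and 375 CPM in Ctrl+I/R and at 72.9, 39.6 and 71.9 CPM in PT-KO+I/R. All injured libraries were below all sham libraries. Egf fell by 5.31 on the log2 scale in the knockout (SE 0.238, edgeR adjusted p = 8.6e-08). In controls its log2 fold change of -3.37 (SE 0.989) had an edgeR adjusted p of 0.0510, and it passed without Ctrl+I/R library 2, with DESeq2, total counts or no filter on low counts, and in 1 fit to all libraries, but not with sex as a covariate (adjusted p = 0.189). Between the injured groups Egf overlapped and had a log2 fold change of -2.15 (SE 0.924, edgeR adjusted p = 0.0890), and -2.71 (edgeR adjusted p = 1.9e-04) without Ctrl+I/R library 2. In the interaction it stood at -1.91 (SE 1.03, edgeR adjusted p = 0.178), and at -2.48 (edgeR adjusted p = 1.9e-04) without that library. In PT-KO against Ctrl it was at -0.22 (edgeR adjusted p = 0.433). Of the fits with a library left out, Egf was called there only without Ctrl library 3, which leaves female controls alone.

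Summed per kb over Egf and the 5 ligands above, Egf made up 96.7 to 98.1% of the ligand level in Ctrl and 96.5 to 96.7% in PT-KO. In Ctrl+I/R it made up 80.0, 7.39 and 79.1%, and in PT-KO+I/R 37.7, 15.2 and 25.1%. Hbegf made up 44.0 to 70.4% in PT-KO+I/R and 72.2% in Ctrl+I/R library 2, but 11.7 and 11.5% in the other injured controls. The sum of the other 5 ligands was 6.11 ± 0.726 CPM per kb in Ctrl and 7.74 ± 0.628 CPM per kb in PT-KO, and after injury 11.7 ± 4.36 and 16.4 ± 4.96 CPM per kb (SD, n = 3). The sum with Egf was 258 ± 39.9 in Ctrl and 225 ± 11.1 in PT-KO, and 35.8 ± 15.6 in Ctrl+I/R and 21.8 ± 4.23 CPM per kb in PT-KO+I/R.

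**Figure D3:**
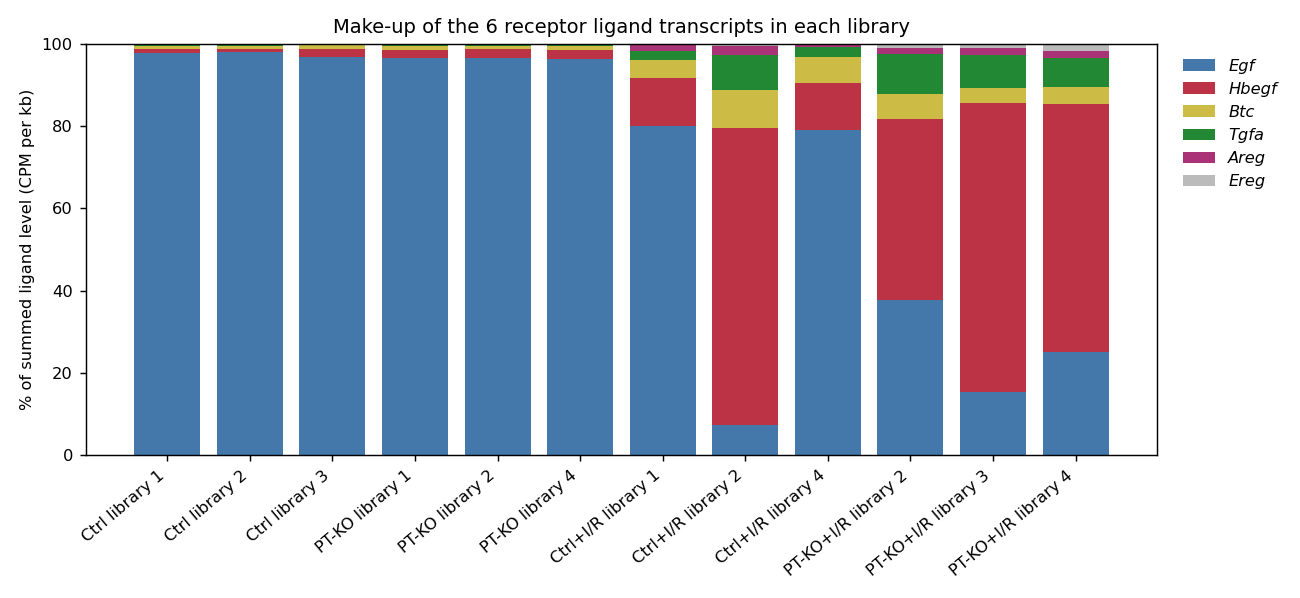
Share of each ligand (percent of the summed CPM per kb of 6 ligands, stacked to 100) in each of the 12 libraries. Egf fills 96.46% or more of each sham library, and Hbegf takes 44.0 to 70.4% of the PT-KO+I/R libraries.

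Markers of the cells that make or receive these signals moved with the same groups, and their part in the results was not tested. Over 5 markers of thick ascending limb, all detected, the summed level was 4465 to 5944 CPM in Ctrl and 4602 to 5417 CPM in PT-KO, and 1464 to 3798 CPM in Ctrl+I/R and 1931 to 2371 CPM in PT-KO+I/R. Over 5 markers of distal convoluted and connecting tubule, all detected, it was 1524 to 1922, 1254 to 1395, 377 to 696 and 388 to 512 CPM in the same order. That sum hides members that went the other way. Trpv5, a calcium channel, was at 27.6 to 34.3 CPM in Ctrl and 52.8 to 66.02 CPM in Ctrl+I/R, and Trpm6, a magnesium channel, was at 19.4 to 21.7 CPM in PT-KO and 27.5 to 39.4 CPM in PT-KO+I/R. Of these 5 markers, 1 rose and 4 fell with injury in controls, and 2 rose and 3 fell in knockouts. The 9 markers of proximal tubule, the main epithelium of the labelled cortex, were all detected and summed to 16050 to 18000, 16920 to 19460, 5842 to 11060 and 5063 to 5697 CPM. Of these, 4 fell and none rose with injury in controls, where Slc22a6, an organic anion transporter, was at 356 to 802 CPM in Ctrl and 402 to 648 CPM in Ctrl+I/R, and all 9 fell in knockouts. Of the thick ascending limb markers, 1 fell in controls and all 5 in knockouts. The library with the least Egf, Ctrl+I/R library 2, also had the lowest sum for thick ascending limb, 1464 CPM.

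The 7 markers of injured tubule summed to 100 to 106 CPM in Ctrl and 112 to 120 CPM in PT-KO, and to 755 to 3065 CPM in Ctrl+I/R and 5455 to 7202 CPM in PT-KO+I/R. Krt8 was the highest of them in sham kidneys, and Havcr1, the kidney injury molecule, was the highest after injury. All 7 rose with injury in both genotypes, while 5 were higher and 1 lower between the injured groups. Vcam1, an adhesion molecule, was at 15.4 to 34.6 CPM in Ctrl+I/R and 8.99 to 11.9 CPM in PT-KO+I/R. Leukocytes can also make Hbegf, Areg and Ereg. The 5 neutrophil markers summed to 1.15 to 1.95 CPM in Ctrl and 0.926 to 2.53 CPM in PT-KO, and to 8.87 to 39.5 CPM in Ctrl+I/R and 42.7 to 65.98 CPM in PT-KO+I/R, with Mpo at 0 in all groups but PT-KO+I/R. Of the 4 tested, all rose with injury in both genotypes, and 2 were higher and none lower between the injured groups. S100a9, a calcium-binding protein of neutrophils, was at 3.89 to 15.0 CPM in Ctrl+I/R and 21.3 to 37.1 CPM in PT-KO+I/R, while Csf3r, the receptor of granulocyte colony-stimulating factor, overlapped at 2.94 to 11.5 and 4.29 to 6.56 CPM. The 6 macrophage markers, all detected, summed to 72.7 to 94.0, 79.2 to 79.9, 81.3 to 133 and 52.7 to 61.9 CPM in the order Ctrl, PT-KO, Ctrl+I/R and PT-KO+I/R. Csf1r, the receptor of colony-stimulating factor 1, made up most of the sham sums, at 46.1 to 63.3 CPM in Ctrl, and was at 24.6 to 41.5 CPM in Ctrl+I/R and 11.8 to 14.8 CPM in PT-KO+I/R. Cd68, a lysosomal protein of macrophages, went the other way, from 1.75 to 2.44 CPM in Ctrl to 14.3 to 17.95 CPM in Ctrl+I/R and 19.7 to 29.7 CPM in PT-KO+I/R. Of the 6 markers, 4 rose and none fell with injury in controls, while 1 rose and 3 fell in knockouts and 1 was higher and 4 lower between the injured groups. The 5 lymphocyte markers, all detected, summed to 1.65 to 3.90, 1.54 to 3.17, 1.595 to 7.42 and 0.266 to 0.639 CPM in the same order.

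Promoter sequence is shown for the inhibitor and for the ligand that was at 0 in sham kidneys, a choice made after their values were seen. The windows of RefSeq (GRCm38.p6) reach from 250 bases before to 50 bases after a start site. Capitals mark the cAMP response element TGACGTCA and the TATA box TATAAA, the first at position -61 in the Areg window (chr5:91139349-91139648, plus strand) and at -51 in the second of the 2 Errfi1 windows (chr4:150854820-150855119, plus strand), the other at -31 and -28.
Areg: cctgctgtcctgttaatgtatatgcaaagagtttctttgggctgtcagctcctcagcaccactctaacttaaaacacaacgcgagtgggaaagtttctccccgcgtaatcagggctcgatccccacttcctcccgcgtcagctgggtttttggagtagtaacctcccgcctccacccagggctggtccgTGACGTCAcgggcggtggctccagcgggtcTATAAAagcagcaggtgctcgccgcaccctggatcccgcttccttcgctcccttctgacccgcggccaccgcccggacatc
Errfi1: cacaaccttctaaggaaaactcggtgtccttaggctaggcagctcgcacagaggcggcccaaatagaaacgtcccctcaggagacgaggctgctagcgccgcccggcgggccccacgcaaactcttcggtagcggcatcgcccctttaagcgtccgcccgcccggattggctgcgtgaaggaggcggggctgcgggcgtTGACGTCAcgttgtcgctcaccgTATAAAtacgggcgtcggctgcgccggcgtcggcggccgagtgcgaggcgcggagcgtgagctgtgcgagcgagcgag
Of 32851 mouse windows of 300 bases, 1.79% hold TGACGTCA and 13.6% hold TATAAA on either strand. Windows of 7 of the 10 genes, 8 in all, were searched, and neither motif was found in the single windows of Egfr, Erbb2, Tgfa, Btc and Adam17 or in the first Errfi1 window. The AP-1 site TGANTCA, found in 7.81% of all windows, was in none of the 8. Such a match describes the letters of a window and is no measure of binding.

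The other genes of the pathway were described by 5 lists, none of which holds the 10 genes. The lists were chosen with earlier results of these data known, so their counts are a description and no test of the pathway. Their counts stand beside those of all genes tested: 22.5% higher and 24.4% lower between the injured groups, 32.9% and 32.7% with injury in knockouts, 11.4% and 7.97% with injury in controls, and 14.3% positive and 16.4% negative in the interaction. Between the injured groups, 11 of 18 transcripts known to rise with ERK activity were higher, 1 lower and 6 not called, and the list median was 0.82 on the log2 scale against -0.00489 for all genes tested. Fosl1, an AP-1 subunit, had 0 counts in every PT-KO library, 0.638 to 3.50 CPM in Ctrl+I/R and 22.4 to 45.8 CPM in PT-KO+I/R, and was higher by 3.97 on the log2 scale (edgeR adjusted p = 7.4e-04). Without Fosl1, 10 of 17 were higher and 1 lower, with a median of 0.80. Dusp5, a nuclear phosphatase of ERK, was higher by 2.98 (edgeR adjusted p = 8.2e-04), with 2.68 to 8.52 CPM in Ctrl+I/R and 29.9 to 49.3 CPM in PT-KO+I/R. Ccnd1, the cyclin of G1, was the exception, at -1.23 (edgeR adjusted p = 8.4e-04), and was at 261 to 357 CPM in Ctrl+I/R and 110 to 145 CPM in PT-KO+I/R. With total counts, where the median of all genes was at -0.21, 9 of the 18 were higher and 1 lower, with a median of 0.61.

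With injury in the knockout, 14 of the 18 ERK transcripts rose and 2 fell, with a median of 1.38 against 0.01 for all genes. Fosl1 entered the test only through injured libraries, and without it 13 of 17 rose and 2 fell, with a median of 1.36. Fosl1 was at least 203-fold higher than the floor in PT-KO, Dusp5 rose by 5.0 on the log2 scale (edgeR adjusted p = 8.6e-08), and Epha4, an ephrin receptor, and Ccnd1 fell. With injury in controls, 4 of the 18 rose and none fell, among them Myc, the growth-promoting transcription factor, by 2.80 (edgeR adjusted p = 0.0267), and Fosl1, with 138 counts against 3, without which 3 of 17 rose. In the interaction 6 of 17 were positive and 1 negative without Fosl1, with a median of 0.80 and with Dusp5 at 2.64, Epha2 at 1.77 and Ccnd1 at -1.37. In PT-KO against Ctrl, edgeR called no gene of the 5 lists.

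Of 26 signalling intermediates, 14 were higher, 1 lower and 11 not called between the injured groups, where 22.5% of all genes were higher and 24.4% lower, with a median of 0.35. Src, a kinase that acts with the receptors, stood at 1.47 (edgeR adjusted p = 9.2e-04), with 27.3 to 44.2 CPM in Ctrl+I/R and 78.6 to 111 CPM in PT-KO+I/R. Stat3, a transcription factor that the receptors and cytokines activate, stood at 1.13 (edgeR adjusted p = 0.00242), and Stat5a was the lower gene, at -0.42. With total counts 11 were higher and 4 lower, with a median of 0.14 against -0.21 for all genes. With injury 6 of the 26 rose and 2 fell in controls, Stat3 by 1.44 and Pik3r1, a regulatory subunit of PI3K, by 0.78 among the former and Gab1 and Pik3ca the latter, and 16 rose and 6 fell in knockouts, against 32.9% and 32.7% of all genes. In the interaction 11 were positive and 1 negative, the last being Stat5b at -0.44.

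Among 16 genes that slow the receptors or steer their traffic, 8 were higher, 2 lower and 6 not called between the injured groups, with a median of 0.36. Cblb, a ubiquitin ligase that marks active receptors for breakdown, stood at 1.33 (edgeR adjusted p = 6.3e-04), with 14.3 to 18.0 CPM in Ctrl+I/R and 34.2 to 48.7 CPM in PT-KO+I/R. Cblc, of the same family, stood at 0.84, while Sh3kbp1, an adaptor of Cbl in endocytosis, was lower, at -1.47, as was Socs5, at -0.54. With total counts 2 were called higher and 2 lower, with a median of 0.15, where the median of all genes was at -0.21. In controls 1 of the 16, the phosphatase gene Ptpn2, rose with injury and none fell, and in knockouts 8 rose and 4 fell. Cblb also led the interaction, at 1.34, with 3 genes positive and 1 negative.

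Of 11 sheddases and regulators beside Adam17, 2 were higher, 2 lower and 7 not called between the injured groups, with a median of -0.02. Rhbdf2 (iRhom2), which carries Adam17 to the cell surface, stood at 0.91 (edgeR adjusted p = 0.00699), with 13.2 to 23.6 CPM in Ctrl+I/R and 31.3 to 36.6 CPM in PT-KO+I/R. Frmd8, which binds the iRhoms and stabilises the sheddase, stood at 0.64. Timp3, the tissue inhibitor of Adam17, was lower, at -0.65 (edgeR adjusted p = 0.0163), with 1938 to 2147 CPM in Ctrl+I/R and 1101 to 1576 CPM in PT-KO+I/R, and Adam12 was lower, at -1.26. With total counts 1 of the 11 was higher and 3 were lower. The 5 markers of fibroblasts and pericytes, all detected, summed to 347 to 424 CPM in Ctrl+I/R and 107.5 to 186 CPM in PT-KO+I/R, beside 140 to 176.5 CPM in Ctrl and 105 to 158 CPM in PT-KO, and their part in these differences was not tested. Of the 5, 2 were called lower and none higher between the injured groups. The collagen genes Col1a1 and Col1a2 were at 108.5 to 142.6 and 146 to 169 CPM in Ctrl+I/R and at 6.14 to 17.0 and 17.0 to 43.8 CPM in PT-KO+I/R. Pdgfra, at 18.8 to 35.4 against 27.7 to 43.9 CPM, and Dcn, at 11.97 to 26.6 against 14.5 to 29.0 CPM, overlapped. Adam8, at 0.270 to 0.679 CPM in PT-KO, entered the tests of injury only through injured libraries and is left out of the next counts. With injury, 4 of 10 rose and none fell in controls, against 11.4% and 7.97% of all genes, and 6 rose and 1 fell in knockouts, against 32.9% and 32.7%. In knockouts Adam19 rose by 2.05 and Timp3 fell by 1.40 on the log2 scale.

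The list of other ligands and receptors held 7 genes, of which 4 had enough counts, Egf among them. Erbb4, the fourth receptor, was at 28.9 to 49.4 CPM in Ctrl+I/R and 10.3 to 14.9 CPM in PT-KO+I/R, a log2 difference of -1.53 (edgeR adjusted p = 0.00146), and stood at -1.25 in the interaction. Nrg1, a neuregulin that binds Erbb3 and Erbb4, rose with injury by 2.54 in controls (edgeR adjusted p = 0.00928) and by 2.75 in knockouts (edgeR adjusted p = 5.8e-07), from 7.02 to 8.36 CPM in Ctrl to 24.7 to 72.0 CPM in Ctrl+I/R. Nrg4, a ligand of Erbb4, was higher by 0.91 between the injured groups (edgeR adjusted p = 0.0321), but total counts called none of the 4 higher.

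**Figure D4:**
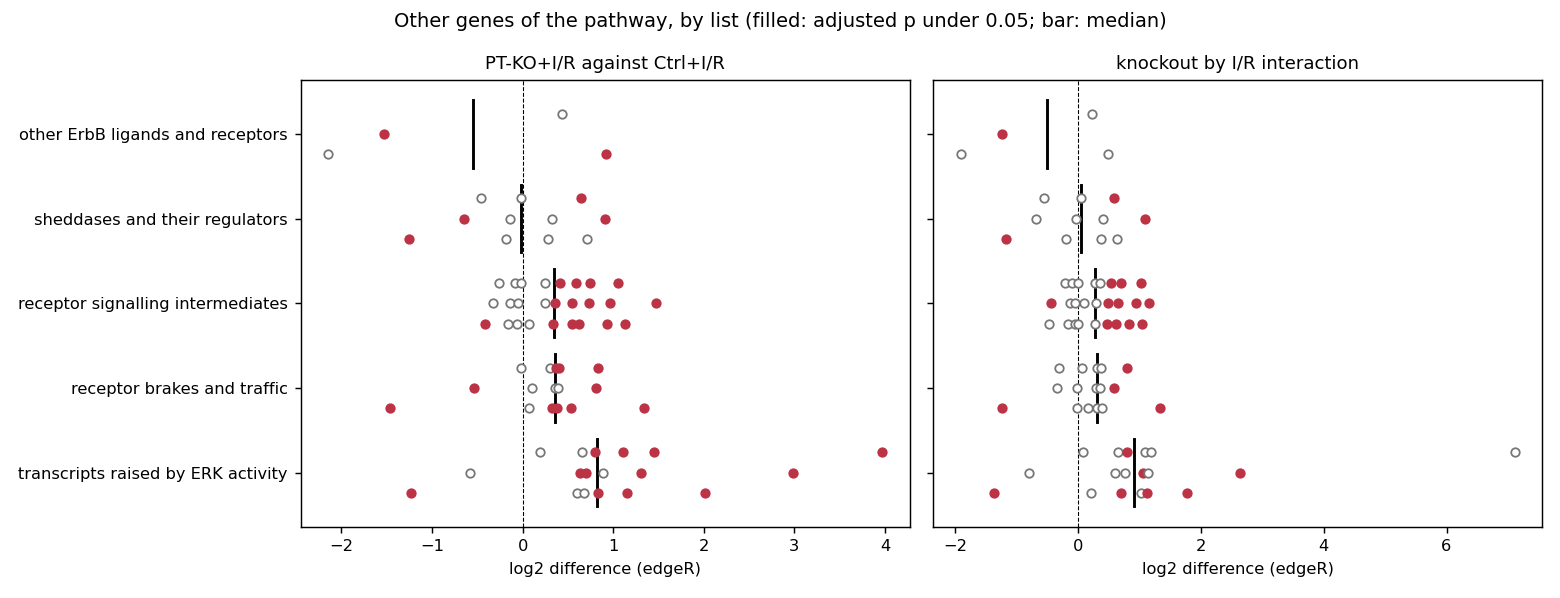
Log2 difference (edgeR, x axis) of each tested gene of the 5 lists (rows) between the injured groups (left) and in the knockout by I/R interaction (right); points are genes, filled at an adjusted p under 0.05, and bars are list medians. The ERK list has its median at 0.82 on the left and at 0.91 on the right (0.80 on either side without Fosl1), where the open point farthest right is Fosl1, whose value is no bound because PT-KO was at 0.

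Genes of like pattern were sought by Pearson's r of log2(CPM + 1) over the 12 libraries, among the 16168 genes tested in the joint fit, as a description of libraries that share their groups. The profile of Egfr was most like those of Mapk1ip1l (r = 0.984), Mtpn (0.974) and Nedd1 (0.973). Of the ligands among the 10 genes, Hbegf had the widest range of group means, 2.05 on that scale, and its profile was most like those of Mast2 (r = 0.976), Smad2 (0.971) and Ssr1 (0.969). Some counts are shared with genes on the opposite strand if the libraries do not keep strand, which is not given in the sources used here: the exons of Egf overlap Gm42697 in 5.38% and 6330410L21Rik in 4.43% of their bases, those of Adam17 overlap Iah1 in 4.35%, those of Ereg overlap Gm19610 in 3.42%, those of Tgfa overlap Gm43917 in 1.82%, and those of Erbb2 overlap Mien1 in 0.173%.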

How the data were processed

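RNA from kidney cortex of 12 mice, 3 in each of 4 groups, was sequenced on an Illumina platform. The authors deposited a single table of read counts, whole numbers by gene, neither normalized nor filtered. Per the submitters' processing notes, reads were aligned with HISAT2 2.0.4 to mm10, while the counting program, its annotation and its use of strand are not given in the sources used here. Symbols, exon lengths and coordinates came from GENCODE M21, and 55141 of 55487 genes had a symbol. Column Con-3 was matched to Ctrl by its name only, because the control titles are numbered 1, 2 and 4, and its mouse is therefore not identified beyond its group.

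Genes were filtered with filterByExpr, scaled by TMM and tested with edgeR 4.0.16 (quasi-likelihood, R 4.3.3), on 6 libraries for a pair of groups and on all 12 for the interaction. Calls were made at p under 0.05 after Benjamini-Hochberg adjustment over all genes tested. Single genes were also compared by a two-sided exact permutation test of log2(CPM + 1). The methods were tested on simulated data. Ratios against 1 to 3 counts carry an exact 95% interval, and a fold against 0 was set against a floor of 3 counts per library. The limits cover counting error only.

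Alternatives were DESeq2 1.42.0, total counts, no filter on low counts, 1 joint fit of the 12 libraries, a replicate block, sex as a covariate, leaving out each library and, added after the data had been seen, the joint fit with sex. The sexes were read from Xist and Y-linked genes. Replicate numbers were checked for pairing: over 12 pairs of libraries with 1 number the deviations from group means had a median r of -0.03 (from -0.24 to 0.26), so no pairing was used. The genes named were the 10 genes, Egf in every comparison, Gfer as a check of the labels, up to 2 called genes at each end of each list and comparison, and the 3 most like in pattern. Members and lists were chosen with earlier results of these data known.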

Additional observations from a re-analysis of the deposited data

Results flagged for a closer look

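The response to I/R differed between knockout and control kidneys for 4 of the 8 genes with enough counts in sham kidneys, by the test of the difference itself in edgeR on 12 libraries. Of all genes tested, 14.3% were called positive and 16.4% negative. Errfi1 stood at 1.56 on the log2 scale (adjusted p = 1.8e-04) and Erbb3 at 1.25 (adjusted p = 0.00442), each lower than the shams in 3 of 3 injured control libraries and higher in 3 of 3 injured knockout libraries. Btc stood at -1.08 (adjusted p = 0.0120) and was lower than every PT-KO library in 3 of 3 PT-KO+I/R libraries. Adam17 stood at -0.38 (adjusted p = 0.0471), and 11 of 12 fits with a library left out did not call it.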

How the results depend on the processing

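Over 48 values of genes in comparisons, 276 values under other settings kept direction and side of the threshold in 217 cases, lost the call in 20, gained it in 22 and changed sign in 17. With a library left out, 290 of 348 kept both.

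In Ctrl+I/R against Ctrl, members called went from 2 to 4 with no filter on low counts and to 4 in 1 fit to all 12 libraries (4938 genes against 3019), and to 0 with sex as a covariate (1 gene) or in the joint fit with sex (2029 genes), an alternative chosen after seeing the data. With a library left out the range was 379 to 4061 genes (379 and 413 when Ctrl library 1 or 2 was dropped, and 833 and 1635 when Ctrl+I/R library 1 or 2 was) and 0 to 3 members. In PT-KO+I/R against PT-KO the ranges were 9111 to 10262 genes and 7 to 9 members, which count Ereg (called in all 6 fits) where the text above does not. In PT-KO against Ctrl, genes called went from 0 to 458 with DESeq2 (2 members), 1 with total counts, 388 with no filter (1 member) and 4 with sex as a covariate, and the range with a library left out was 0 to 1930 genes and 0 to 3 members, the highest without Ctrl library 3. Between the injured groups that range was 4918 to 7509 genes and 4 to 7 members, and in the interaction 3622 to 5509 genes and 3 to 4 members. Sex as a covariate left 3233 interaction genes. The fit of PT-KO against Ctrl without Ctrl library 3 sets female controls alone against male knockouts. The causes were not tested.

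With the replicate block, 1683 genes and 2 members were called between the injured groups, 1378 genes and 3 members in PT-KO against Ctrl, and 3215 genes and 2 members in the interaction. The replicate numbers showed no sign of pairing, with 1 of 12 pairs over a correlation of 0.1. With 3 libraries in a group this check cannot exclude pairing, and the values with the block are given for completeness.

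The values that changed sign were all of genes not called. In Ctrl+I/R against Ctrl they were Btc, at 0.0842 with total counts, 0.0592 with sex, 0.0597 in the joint fit with sex and -0.21 to 0.14 with a library left out, and Adam17, at -0.0045 with the replicate block. In PT-KO against Ctrl, total counts turned Egfr to -0.0839, Erbb3 to -0.0171 and Tgfa to -0.0151, DESeq2 turned Btc to 0.0031, and the replicate block turned Tgfa to -0.17. There sex as a covariate turned Egfr to -0.0259, Btc to 0.0859 and Egf to 0.0853, and the joint fit with sex gave -0.0256, 0.0869 and 0.0854. Leaving out a library gave ranges of -0.0733 to 0.12 for Egfr, -0.055 to 0.28 for Tgfa and -0.0819 to 0.12 for Btc. In the interaction, Hbegf went to -0.33 with the replicate block and from -0.15 to 0.74 with a library left out, and Ereg to -0.25 with sex and from -0.24 to 3.51 with a library left out.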
